A study of Homo sapiens and Mus musculus with 12 samples.

Results

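The genes described here encode cytokines of natural killer (NK) cells, secreted or held at the membrane: interferon-γ (Ifng/IFNG), tumour necrosis factor (Tnf/TNF), lymphotoxin-α (Lta/LTA) and lymphotoxin-β (Ltb/LTB) in mouse and human, with GM-CSF (CSF2) and the p19 chain of IL-23 (IL23A) in human. They were chosen by symbol, as 4 rows of the 22021 genes of the mouse count table and 6 rows of the 18304 genes of the human count table. The mouse counterparts Csf2 and Il23a are given beside them. RNA-seq was done on CD3-NK1.1+ NK cells sorted from spleens of C57BL/6J mice aged 8–12 weeks, matched for age and sex. WT mice were Ehmt2 flox/flox. KO mice were Ehmt2 flox/flox; Ncr1-iCre, so that Cre is driven by the gene of the NK receptor NKp46 and the deletion follows Ncr1 expression. EHMT2 is a histone methyltransferase that places methyl groups on lysine 9 of histone H3, a mark of repressed chromatin. The human libraries came from NK92MI cells, an established NK cell line that carries an IL-2 transgene, treated with BIX-01294, an inhibitor of the EHMT2 methyltransferase, or with DMSO as the vehicle control. There were 3 libraries per group, and the sample labels give no BIX-01294 dose or time. The labels give the genotype of the KO samples as Ezh2-KO while their titles name EHMT2, and the titles were followed.

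NK cells release IFN-γ and GM-CSF after signals from cytokine receptors, such as those of IL-12, IL-18 and IL-15, and from activating receptors. IFN-γ is the sole type II interferon and drives macrophage activation and antigen presentation. TNF and lymphotoxin-α bind the TNF receptors, while lymphotoxin-β anchors lymphotoxin at the cell membrane and signals through the lymphotoxin-β receptor. GM-CSF acts on myeloid cells, and IL-23 p19 is secreted as a dimer with the p40 chain, IL12B. Many mRNAs of this kind are short-lived because AU-rich elements in their 3′ untranslated regions recruit decay factors of the ZFP36 family.

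In GENCODE annotations of the builds the authors aligned to, IFNG lies on chromosome 12 of GRCh38 from 68154768 to 68159740 on the minus strand and IL23A on chromosome 12 from 56334174 to 56340410 on the plus strand. LTA (31572054–31574324), TNF (31575565–31578336) and LTB (31580525–31582522) lie side by side on chromosome 6, with 1240 bases between LTA and TNF and 2188 bases between TNF and LTB. CSF2 lies on chromosome 5 from 132073789 to 132076170. In GRCm38, Ifng lies on chromosome 10 (118441046–118445892), Csf2 on chromosome 11 (54247271–54249667), and Ltb (35194439–35196320), Tnf (35199381–35202007) and Lta (35203165–35205351) on chromosome 17. IFNG is overlapped on the opposite strand by IFNG-AS1 with 0 shared exon bases, whereas 96 exon bases of Csf2 are shared with the antisense gene Gm12223. Ifng shares 336 exon bases with Gm49751 on the same strand, a gene that has no row in the mouse table, and how reads in this stretch were counted is not given. The strand setting of the counting is not given in the sources used here.

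The 3 promoters below are those of the human genes with the largest differences, IFNG and IL23A, and of TNF, whose level was nearly the same in both groups. Each is the 250 bases before the RefSeq transcription start (GRCh38.p14), 5′ to 3′ on the strand of the gene, at chr12:68159741-68159990 (minus strand) for IFNG, chr12:56338634-56338883 (plus strand) for IL23A and chr6:31575315-31575564 (plus strand) for TNF. The RefSeq start of IL23A, 56338884, lies inside the GENCODE span of the gene, which begins at 56334174. Capitals mark matches, on either strand, to the TATA box core TATAAA, the NFAT core GGAAA, the AP-1 element TGANTCA and the NF-kB consensus.
IFNG promoter: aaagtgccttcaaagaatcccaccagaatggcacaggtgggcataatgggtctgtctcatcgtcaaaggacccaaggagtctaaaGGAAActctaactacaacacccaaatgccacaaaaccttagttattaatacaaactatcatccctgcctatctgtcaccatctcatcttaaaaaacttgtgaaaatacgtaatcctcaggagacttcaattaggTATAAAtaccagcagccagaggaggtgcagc
IL23A promoter: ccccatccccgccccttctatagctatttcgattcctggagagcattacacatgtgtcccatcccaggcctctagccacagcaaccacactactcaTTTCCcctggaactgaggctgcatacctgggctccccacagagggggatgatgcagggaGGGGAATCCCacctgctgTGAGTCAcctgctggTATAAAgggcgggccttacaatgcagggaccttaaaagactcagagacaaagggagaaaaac
TNF promoter: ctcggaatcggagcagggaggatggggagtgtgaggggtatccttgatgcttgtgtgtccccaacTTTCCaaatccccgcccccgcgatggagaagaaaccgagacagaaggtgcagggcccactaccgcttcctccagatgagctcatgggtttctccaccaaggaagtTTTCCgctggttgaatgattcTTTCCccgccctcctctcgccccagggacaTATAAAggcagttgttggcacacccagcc

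All 3 windows held TATAAA, which 11.1% of 27305 RefSeq promoters of the same length hold, and at least 1 GGAAA, which 56.0% hold. From the transcription start, TATAAA lay at −31 in IFNG, −29 in TNF and −62 in IL23A. The TNF window held 3 GGAAA matches, and the IFNG and IL23A windows 1 each. AP-1 and NF-kB matches were in the IL23A window only among the 3, and 6.596% and 9.57% of all promoters hold them. The searched letters of the other elements were TGTGGT (RUNX, 10.9% of promoters), GGTGTGA (T-box core, 2.72%), TTCNNNGAA (STAT, 6.78%), CGGAA (ETS core, 30.7%), GGGCGG (GC box, 42.3%) and TGACG (CRE core, 21.7%). IFNG had 1 match each to the STAT and CRE core letters, IL23A had 1 RUNX and 2 GC box matches, and TNF had 2 ETS core and 2 GC box matches. The search covered both strands, and GGAAA and CGGAA can overlap.

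The AU-rich sites below are shown for 6 of these mRNAs, since LTB and Ltb hold no such pentamer. Each is the 30-base window of the 3′ untranslated region with the most ATTTA pentamers, which are in capitals.
IFNG (chr12:68155284-68155313, minus strand, GRCh38): tctATTTAttaatATTTAacattATTTAta
Ifng (chr10:118445332-118445361, plus strand, GRCm38): cctATTTAttaatATTTAaaactATTTAta
TNF (chr6:31578000-31578029, plus strand, GRCh38): ttATTTAttATTTATTTAttATTTATTTAt
CSF2 (chr5:132076076-132076105, plus strand, GRCh38): aaaatATTTATTTATTTATTTATTTAagtt
IL23A (chr12:56340343-56340372, plus strand, GRCh38): ggaggattATTTAttgtATTTAtattgaat
LTA (chr6:31574067-31574096, plus strand, GRCh38): aaaattaaattATTTATTTAtggaggatgg

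The whole 3′ untranslated regions held 5 pentamers in IFNG, 9 in TNF, 8 in CSF2, 4 in IL23A, 3 in LTA and 0 in LTB, against a median of 2 over 19249 human genes. At least 5 are held by 30.4% of human genes, so the count in IFNG is not rare. In mouse the counts were 6 in Ifng, 8 in Tnf, 9 in Csf2, 6 in Il23a, 3 in Lta and 0 in Ltb, with a median of 1 over 21028 genes. Repeated pentamers were present both in TNF, whose level was nearly the same with and without BIX-01294, and in IFNG, which rose. LTA and LTB, whose increases were similar to each other, had 3 and 0. The counts are not adjusted for the length of the region. mRNA stability was not measured, and a link between pentamers and the differences was not tested.

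Library totals lay between 25891680 and 37438868 counts in mouse and between 16579469 and 17165446 in human. Levels are TMM-normalized counts scaled to library size (CPM), with a correction for composition. The targeted gene Ehmt2 had a log2 fold change of −0.91 in KO NK cells (adjusted p = 0.0162, Benjamini-Hochberg, by the quasi-likelihood test of edgeR), and in NK92MI cells EHMT2 had a log2 fold change of −0.58 with BIX-01294 (adjusted p = 0.000101 by edgeR). The labels do not say that each replicate is a separate animal or culture, and p-values then measure the spread between these samples. The summed levels of marker genes differed between the mouse groups. All 12 macrophage and monocyte markers were lower in KO NK cells and 7 passed the test, with sums of 1404–2549 CPM in KO and 2626–6838 CPM in WT libraries. B cell markers summed to 104–549 CPM in KO and 599–1683 CPM in WT libraries (10 of 10 lower, 1 passed), and neutrophil markers to 42.4–208 CPM and 193–1519 CPM (10 of 10 lower, 3 passed). NK markers summed to 11138–12855 CPM in KO and 5845–9805 CPM in WT libraries, with WT replicate 2 the highest of WT. T cell marker sums overlapped (143–258 and 188–288 CPM), and dendritic cell marker sums did as well (1150–1407 and 1102–1421 CPM, 8 of 9 lower, 2 passed). Most of the dendritic sum was Itgax, with 830–1169 CPM in KO and 637–1034 CPM in WT libraries. Itgax was the only dendritic marker that was higher in KO, so the overlap of the sums does not describe the other markers. Markers of innate lymphoid cells summed to 214–246 CPM in KO and 155–207 CPM in WT libraries (5 of 7 higher), and plasma cell markers to 96.7–169 and 149–667 CPM. No marker of these lists was at 0 in all libraries. In NK92MI cells NK markers summed to 7802–9866 CPM with BIX-01294 and 6040–6534 CPM with DMSO. Their directions were mixed, since of 12 tested 6 passed as higher and 4 as lower, among the latter NCR1 and TBX21. Macrophage and monocyte markers summed to 9.23–10.7 CPM with BIX-01294 and 3.86–5.18 CPM with DMSO. Most of this sum was VCAM1 (4.41–5.54 and 1.34–1.89 CPM) and CSF1R (3.66–4.57 and 2.05–3.26 CPM). Markers of innate lymphoid cells summed to 704–831 CPM with BIX-01294 and 588–618 CPM with DMSO, and dendritic cell markers to 85.0–91.0 and 106–112 CPM. Most of the former sum was ITGA1 (566–682 and 464–491 CPM), and most of the latter ITGAX (60.7–63.6 and 74.4–82.6 CPM). In bulk samples, fewer cells of a type and less RNA per cell cannot be told apart.

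In KO NK cells Ifng was about 2-fold higher than in WT NK cells, while Tnf, Lta and Ltb did not pass the test. Of the 4 mouse genes 1 passed, at an adjusted p under 0.05 by edgeR, where 4.44% of the 13189 genes tested passed as higher and 7.43% as lower. Csf2 passed as well. With thresholds like those of the study (adjusted p under 0.01, log2 fold change above 0.5 in size), Ifng passed by DESeq2, where 2.87% of genes were higher and 7.87% lower. It did not pass by edgeR, where 0% of genes were higher and 0% lower at these thresholds, against 2080 higher and 2639 lower genes at an unadjusted p under 0.05.

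Ifng was counted at 39.3, 43.0 and 38.3 CPM in KO replicates 1 to 3 and at 15.9, 25.4 and 16.2 CPM in WT replicates 1 to 3. Every KO library was above every WT library, and WT replicate 2 was the highest of WT. The mean level was 40.2 ± 2.45 CPM for KO and 19.2 ± 5.41 CPM for WT (SD, n = 3). The log2 fold change was 1.07 (standard error 0.19, 95% interval 0.64 to 1.50, adjusted p = 0.0279 by edgeR), which is 2.10-fold, and DESeq2 gave an adjusted p of 4.60e-06. The spread was larger among WT libraries, with a coefficient of variation of 28.3% against 6.08% in KO.

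The Ifng difference was smaller on the scale of other NK genes. When libraries were scaled to 11 pan-NK genes, among them Ncr1, Klrd1, Eomes and Prf1, in place of TMM, its log2 fold change was 0.32 (adjusted p = 0.335 by edgeR). On the TMM scale all 11 were higher in KO NK cells, 5 passed by edgeR and their median log2 fold change was 0.74. Scaling to them therefore shifts KO minus WT values down. The median over all genes moved from 0.01 to −0.81. Passing genes were then 33 higher and 7414 lower, in place of 585 and 980. The paper reports raised Prf1 mRNA in KO NK cells by RT-qPCR. It reports raised Ifng mRNA by RT-qPCR as well, and higher IFN-γ protein by intracellular staining. On the pan-NK scale, a response of the pan-NK genes to the knockout and a difference in NK cell content cannot be told apart. WT replicate 2, with the highest Ifng level of WT, also had the highest NK marker sum of WT, 9805 CPM against 5845 and 6115 CPM. The part of the marker differences in the Ifng result was not tested beyond this. Leaving out KO replicate 2, KO replicate 3, WT replicate 1 or WT replicate 3 gave log2 fold changes of 1.02, 1.11, 0.95 and 0.96 for Ifng with adjusted p of 0.124, 0.131, 0.0716 and 0.115 by edgeR. Without WT replicate 2 the log2 fold change was 1.33 and the adjusted p 0.00168.

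Csf2, which encodes GM-CSF, was counted at 6.34, 10.1 and 5.68 CPM in KO and at 2.75, 3.84 and 2.23 CPM in WT replicates 1 to 3. The groups did not overlap. Its log2 fold change was 1.33 (standard error 0.30, 95% interval 0.65 to 2.02, adjusted p = 0.0400 by edgeR), or 0.56 with an adjusted p of 0.218 on the pan-NK scale. In raw counts Csf2 had 207 to 375 reads in KO and 83 to 102 in WT libraries. As for Ifng, its adjusted p rose above 0.05 without KO replicate 2 (0.147), KO replicate 3 (0.131), WT replicate 1 (0.105) or WT replicate 3 (0.128).

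**Figure D1:**
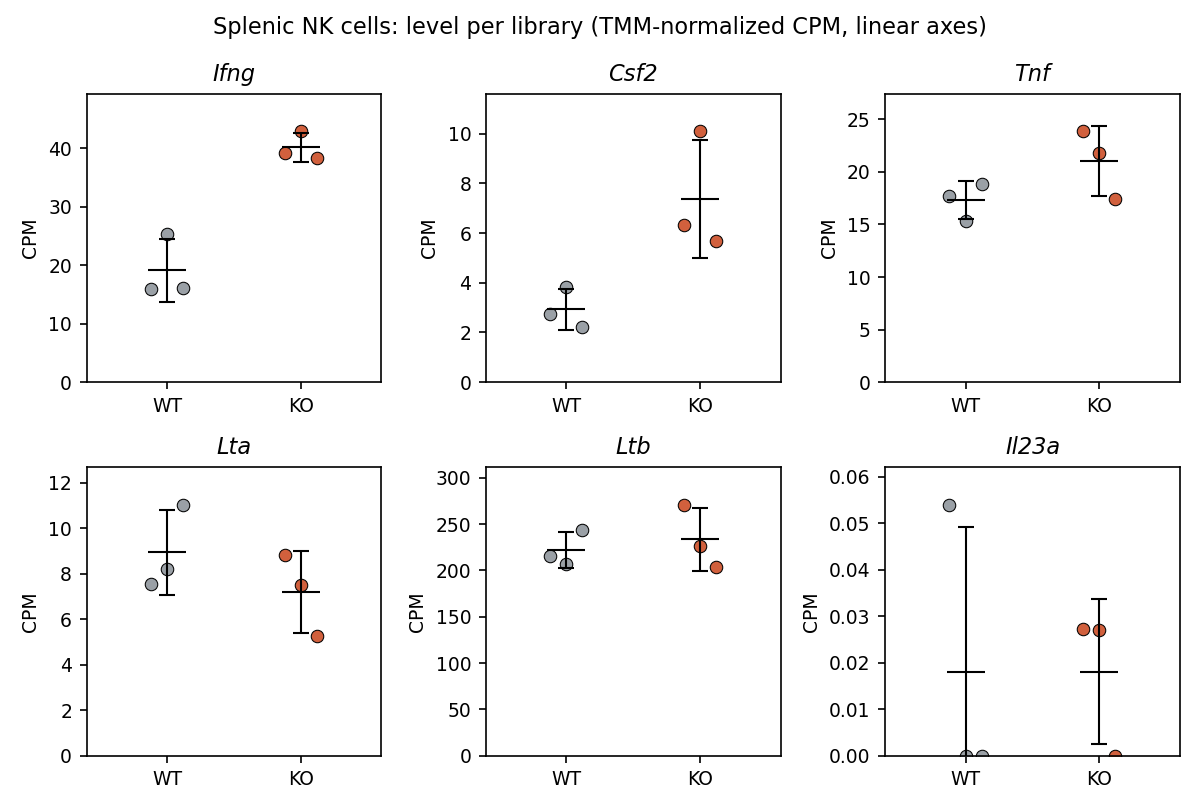
Level of 6 cytokine genes in splenic NK cells of WT and KO mice, in CPM on linear axes from 0. Each point is 1 library, the horizontal mark is the mean and the bar is ± 1 SD (n = 3). Ifng and Csf2 were higher in each KO library than in each WT library (on the pan-NK scale their differences did not pass the test). An exact two-sided permutation test gives p = 0.1 for such a separation, the smallest possible for 3 against 3. Of all genes tested, 4.44% passed as higher by edgeR. The groups overlapped for Tnf, Lta and Ltb, and Il23a was near 0.

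The genes of the TNF and lymphotoxin cluster did not follow Ifng. Tnf was counted at 23.9, 21.8 and 17.4 CPM in KO and at 17.8, 15.3 and 18.9 CPM in WT replicates 1 to 3. The groups overlapped, since KO replicate 3 lay below WT replicates 1 and 3. Tnf had a log2 fold change of 0.28 (95% interval −0.06 to 0.62, adjusted p = 0.208 by edgeR) and turned to −0.56 (adjusted p = 0.141) on the pan-NK scale. The TMM interval allows up to a 1.54-fold increase of Tnf.

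Lta was counted at 8.81, 7.52 and 5.26 CPM in KO and at 7.55, 8.22 and 11.04 CPM in WT replicates 1 to 3. KO replicate 1 lay above 2 of the WT libraries. Its log2 fold change was −0.31 (95% interval −0.85 to 0.23, adjusted p = 0.363 by edgeR), and on the pan-NK scale it was −1.13 (adjusted p = 0.0222).

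Ltb, by far the most abundant of these mRNAs, was counted at 271, 226 and 204 CPM in KO and at 215, 207 and 244 CPM in WT replicates 1 to 3, and the groups overlapped. Ltb had a log2 fold change of 0.07 (95% interval −0.21 to 0.36, adjusted p = 0.688 by edgeR) but −0.75 on the pan-NK scale (adjusted p = 0.0383). Leaving out KO replicate 1, its highest library, gave −0.05. Il23a had 1, 1 and 0 reads in KO and 2, 0 and 0 reads in WT libraries, too few to be tested (a count of 0 allows up to 0.116 CPM in the shallowest library).

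Per kilobase of exon, the order of levels in WT NK cells was Ltb (146 ± 12.8 CPM per kb, SD, n = 3), Ifng (14.8 ± 4.18), Tnf (10.6 ± 1.11), Lta (6.46 ± 1.34) and Csf2 (3.68 ± 1.03). The intervals of mean ± SD of Ifng and Tnf overlapped. In KO NK cells it was Ltb (154 ± 22.5 CPM per kb), Ifng (31.0 ± 1.89), Tnf (12.8 ± 2.03), Csf2 (9.21 ± 2.98) and Lta (5.20 ± 1.30), and Csf2 overlapped in this way with both Tnf and Lta. Csf2 thus stood below Lta in WT and above it in KO NK cells.

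**Figure D2:**
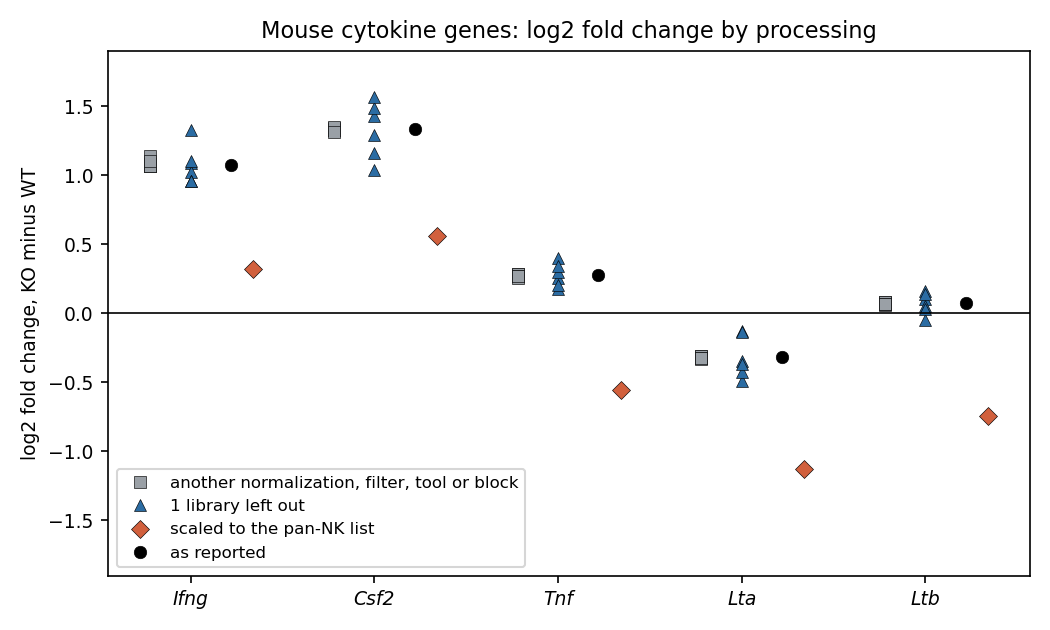
Log2 fold change (KO minus WT) of the mouse cytokine genes as reported (circles) and under other processing: other normalizations, filters, tools or a replicate block (squares), each library left out in turn (triangles) and scaling to the pan-NK list (diamonds). Ifng and Csf2 stayed above 0 throughout, whereas Tnf and Ltb turned negative on the pan-NK scale, and Ltb also without KO replicate 1.

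In NK92MI cells treated with BIX-01294, IFNG and IL23A were each about 6.5-fold higher than with DMSO, LTA and LTB were each about 1.47-fold higher, and TNF did not pass the test. Of the 5 genes tested 4 rose at an adjusted p under 0.05 by edgeR, where 18.4% of the 12727 genes tested passed as higher and 18.4% as lower. CSF2 was not tested because of its low counts. At an adjusted p under 0.01 with a log2 fold change above 0.5, the same 4 passed by edgeR (6.24% of genes higher and 5.43% lower) and 3 passed by DESeq2 (5.95% higher and 4.9% lower), which gave LTB an adjusted p of 0.0166.

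IFNG was counted at 259, 164.5 and 193 CPM in BIX-01294 replicates 1 to 3, and at 31.1, 28.4 and 35.03 CPM in the DMSO libraries, which carry no replicate numbers. Every BIX-01294 library was at least 164.5 CPM and every DMSO library at most 35.03 CPM. The means were 206 ± 48.7 and 31.5 ± 3.33 CPM (SD, n = 3). The difference of IFNG on the log2 scale was 2.71 (standard error 0.14, 95% interval 2.40 to 3.01, adjusted p = 1.90e-08 by edgeR), or 6.53-fold with an interval of 5.29 to 8.04. The long RNA IFNG-AS1, which overlaps IFNG on the other strand, had a log2 fold change of −0.71 (adjusted p = 0.126 by edgeR) at 1.10 CPM with BIX-01294 and 1.80 CPM with DMSO.

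IL23A started from a low level. It was counted at 8.89, 6.88 and 8.50 CPM in BIX-01294 replicates 1 to 3 and at 1.69, 0.819 and 1.18 CPM in the DMSO libraries. These correspond to 117 to 146 reads and 14 to 29 reads, and the groups did not overlap. The log2 fold change of IL23A was 2.71 (standard error 0.24, 95% interval 2.20 to 3.22, adjusted p = 1.79e-06 by edgeR). The means were 8.09 ± 1.07 and 1.23 ± 0.436 CPM (SD, n = 3).

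LTA was counted at 99.5, 93.5 and 119 CPM with BIX-01294 and at 69.2, 73.3 and 69.3 CPM with DMSO. LTB was counted at 499.9, 436 and 673 CPM with BIX-01294 and at 344.5, 392 and 354 CPM with DMSO. For both genes each BIX-01294 library lay above each DMSO library, and BIX-01294 replicate 3 was the highest. The log2 fold change of LTA was 0.56 (standard error 0.09, 95% interval 0.38 to 0.74, adjusted p = 0.000201 by edgeR). That of LTB was also 0.56 (standard error 0.12, 95% interval 0.30 to 0.82, adjusted p = 0.00230 by edgeR).

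TNF, which lies between LTA and LTB, was counted at 3.04, 2.53 and 3.96 CPM with BIX-01294 and at 3.14, 2.98 and 2.84 CPM with DMSO. The groups overlapped. TNF had a log2 fold change of 0.09 (95% interval −0.39 to 0.57, adjusted p = 0.792 by edgeR), so that an increase of up to 1.48-fold is within the interval, and it was −0.10 without BIX-01294 replicate 3. TNF was thus measured on 43 to 67 reads per library. CSF2 had 0, 4 and 7 reads with BIX-01294 and 2, 0 and 1 reads with DMSO, a ratio of 3.69 with a counting interval of 0.976 to 20.6 that covers counting error only.

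**Figure D3:**
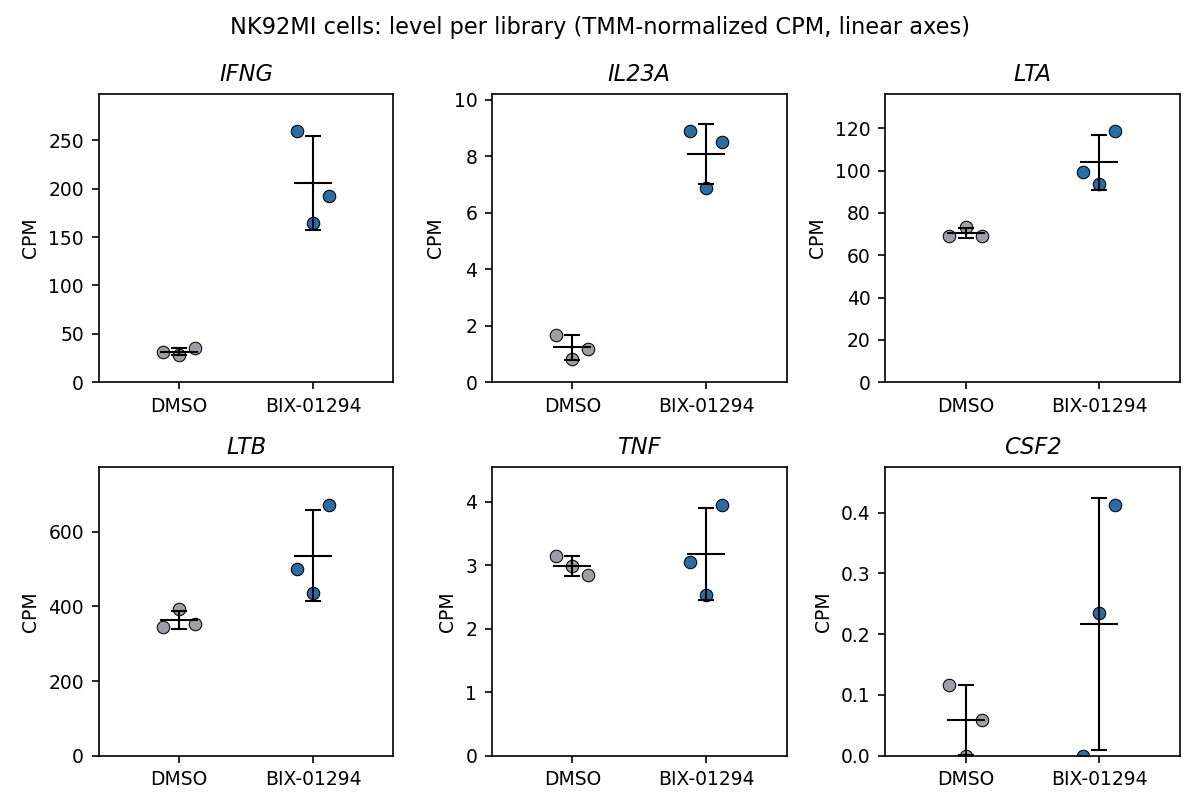
Level of 6 cytokine genes in NK92MI cells of the DMSO and BIX-01294 groups, in CPM on linear axes from 0. Each point is 1 library, the horizontal mark is the mean and the bar is ± 1 SD (n = 3). Every BIX-01294 library was above every DMSO library for IFNG, IL23A, LTA and LTB. An exact two-sided permutation test gives p = 0.1 for such a separation, the smallest possible for 3 against 3. Of all genes tested, 18.4% passed as higher by edgeR. The groups overlapped for TNF, and CSF2 stayed under 0.5 CPM.

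Per kilobase of exon, the DMSO libraries ranked LTB (237 ± 16.3 CPM per kb, SD, n = 3), LTA (40.6 ± 1.33), IFNG (26.0 ± 2.75), TNF (1.78 ± 0.090), IL23A (1.04 ± 0.371) and CSF2 (0.0743 ± 0.0739). The BIX-01294 libraries ranked LTB (349 ± 79.8 CPM per kb), IFNG (170 ± 40.2), LTA (59.8 ± 7.54), IL23A (6.87 ± 0.906), TNF (1.89 ± 0.431) and CSF2 (0.274 ± 0.263). IFNG thus moved above LTA, and IL23A above TNF. In no pair of neighbours did the intervals of mean ± SD overlap, in either group. Within a species, the order of these mean levels was the same with the length of the longest coding transcript in place of all exons.

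**Figure D4:**
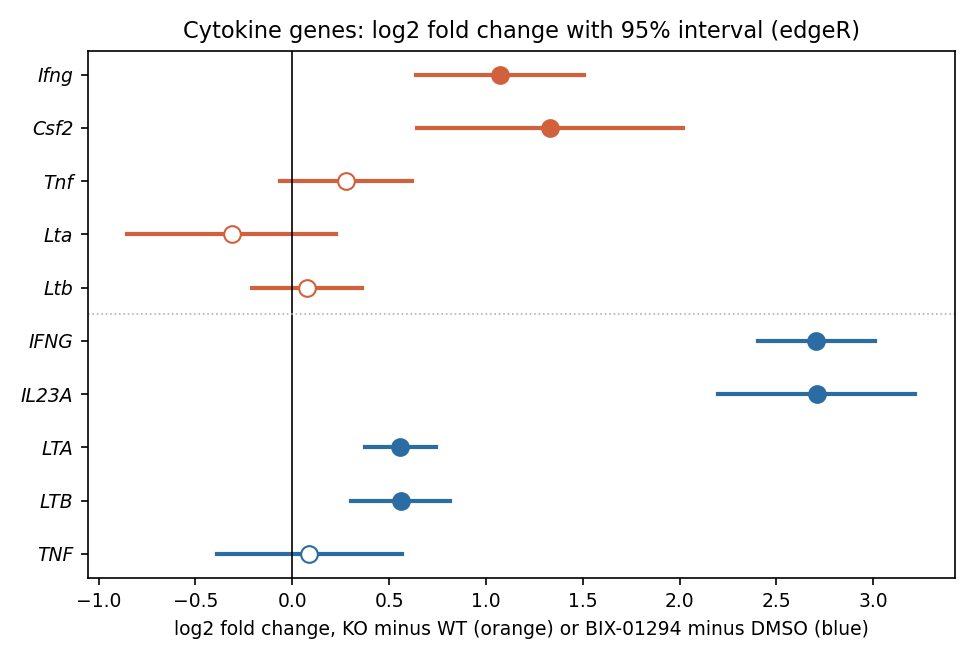
Log2 fold change with its 95% interval from edgeR for the cytokine genes tested, KO minus WT in mouse NK cells (orange, upper rows) and BIX-01294 minus DMSO in NK92MI cells (blue, lower rows). Filled circles passed at an adjusted p under 0.05. Ifng (1.07) and IFNG (2.71) passed in both species, Tnf and TNF in neither, and LTA and LTB passed in human while Lta and Ltb did not in mouse, a difference that was not tested (on the pan-NK scale Ifng and Csf2 did not pass, Tnf and Ltb turned negative, and Lta and Ltb passed as lower).

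Whether the responses of the mouse and human genes differ was not tested, since the species were fitted separately and the perturbations differ. Over the 6 mouse libraries, the genes whose log2 CPM followed Ifng most closely were Hsf4 (Pearson r = 0.999), Gm9992 (0.999) and Ptprcap (0.998), of 13189 genes compared. Over the 6 human libraries those closest to IFNG were SAMSN1 (0.9995), LACC1 (0.998) and BTG2 (0.998), of 12727 genes. These values are descriptions, since the 6 libraries of each species share the same 2 groups.

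The genes around the cytokines in their pathways were described by lists. Over all lists, 29 of 193 mouse genes tested and 102 of 167 human genes tested passed by edgeR, beside 1565 of 13189 and 4692 of 12727 over all genes tested. In mouse this number changed with the library left out. Of the listed genes, 42 passed without KO replicate 1, 64 without WT replicate 2 and 2 without WT replicate 1. Without KO replicate 2, KO replicate 3 or WT replicate 3, 0 passed. There 54, 56 and 54 had an unadjusted p under 0.05 by edgeR, against 81 with all libraries. In human 85 to 101 passed with 1 library left out. On the pan-NK scale, the listed mouse genes that passed by edgeR were all lower in KO NK cells. The myeloid, B cell and neutrophil marker sums given above were lower in KO libraries beside these results, and their part in them was not tested.

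Among other cytokines of lymphocytes, 22 of 37 listed mouse genes were tested, of which 2 rose and 3 fell in KO NK cells, and the median log2 fold change was −0.19. Beside Csf2, Spp1 (osteopontin) rose, from 1.59–2.91 CPM in WT to 5.47–8.50 CPM in KO libraries (log2 fold change 1.54, or 0.73 with adjusted p = 0.118 on the pan-NK scale). The genes that fell were Tgfb1 (−0.45), Ebi3 (−0.83), the shared chain of IL-27 and IL-35, and Gdf15 (−2.43). Gdf15 was low, at 0.698–2.75 CPM in WT and 0.219–0.381 CPM in KO libraries. In NK92MI cells 15 of 39 were tested, of which 6 rose and 4 fell, with a median of 0.06. Beside IL23A, IL13 rose from 0.116–0.237 to 1.999–2.86 CPM and IL32 from 682–749 to 895–1376 CPM (log2 fold change 0.71). The DMSO level of IL13 lay around 3 reads, which is 0.175–0.181 CPM in the human libraries. EBI3 had no reads in any DMSO library, which allows up to 0.181 CPM, and reached 0.588–1.24 CPM with BIX-01294. CSF1 (−0.36), OSM (−0.34), IL16 (−0.21) and TGFB1 (−0.20) fell.

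Of the other ligands of the TNF superfamily, 12 were tested in mouse. Tnfsf14 (LIGHT; log2 fold change 0.67), Tnfsf12 (TWEAK; 0.49) and Tnfsf8 (CD30 ligand; 0.51) rose, but were at −0.13, −0.30 and −0.31 on the pan-NK scale, and Tnfsf18 (GITR ligand) fell, from 0.310–0.863 CPM in WT to at most 0.0548 CPM in KO libraries. The KO level of Tnfsf18 lay below 3 reads, which is 0.0801–0.116 CPM in the mouse libraries. The median of the list was 0.50 and of all genes 0.01, but −0.34 and −0.81 on the pan-NK scale. In NK92MI cells 10 were tested, 3 rose and 2 fell, with a median of 0.32. TNFSF10 (TRAIL) rose from 83.0–91.1 to 203–211 CPM (log2 fold change 1.26), TNFSF14 by 0.55 and TNFSF9 (4-1BB ligand) by 2.05, whereas FASLG fell from 89.3–91.3 to 55.3–61.2 CPM (−0.64) and CD40LG fell by 1.43 on the log2 scale.

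Receptors for these cytokines were tested in 11 mouse genes, of which 3 fell and the median was −0.11. Csf2rb2 (−0.84), which encodes the β chain specific to the IL-3 receptor, and Csf2rb (−0.92), which encodes the β chain shared by the GM-CSF, IL-3 and IL-5 receptors, were at 75.1–88.6 and 127–140 CPM in KO and 132–164 and 206–308 CPM in WT libraries. Ltbr, the lymphotoxin-β receptor, fell by 1.13 on the log2 scale. These genes are also expressed by myeloid cells. In NK92MI cells 6 were tested: IFNGR1, a chain of the IFN-γ receptor, rose (0.55) and TNFRSF1A, the main TNF receptor, fell (−0.37).

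Receptors of the cytokines that induce IFN-γ were tested in 13 genes of each species. In mouse, Il2rg, the common γ chain, rose from 293–379 CPM in WT to 423–487 CPM in KO libraries (log2 fold change 0.47, adjusted p = 0.0472 by edgeR, but −0.32 on the pan-NK scale), and the median was 0.47, or −0.32 on the pan-NK scale. In NK92MI cells 7 rose and 3 fell, with a median of 0.24. IL2RA (0.89), IFNAR1 (0.74), IL18RAP (0.92) and IL2RG (0.65) rose, and TGFBR2 (−0.30), IL12RB2 (−0.23) and IL2RB (−0.16) fell. IL2RA went from 144–160 to 275–283 CPM.

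Transcription factors known to act on these cytokine genes were tested in 36 mouse and 34 human genes. In KO NK cells 5 rose and 1 fell, with a median of 0.13, or −0.70 on the pan-NK scale. Id2, an inhibitor of E proteins needed for NK cells, had a log2 fold change of 0.89 and Tbx21, which encodes T-bet, an activator of Ifng, one of 0.90 (284–443 CPM in WT and 546–707 CPM in KO libraries), and these were 0.09 and 0.13 on the pan-NK scale. Irf1 (0.53) and Bhlhe40 (0.54) rose, but were at −0.26 and −0.25 on the pan-NK scale, and Rel, an NF-kB subunit, fell (−0.34). In NK92MI cells 17 rose and 7 fell, with a median of 0.38. JUN, a subunit of AP-1, rose from 69.1–78.2 to 226–259 CPM (log2 fold change 1.76), and the NF-kB subunits NFKB2 (1.50) and RELB (1.39) rose with it, as did BHLHE40 (1.08). TBX21 fell from 226–244 to 162–173 CPM (−0.46) and ID2 from 566–636 to 437–491 CPM (−0.35), as did STAT5B and IRF8 (−0.57 each). TBX21 and ID2 thus moved opposite to their mouse counterparts on the TMM scale, a difference that was not tested.

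Regulators of mRNA decay were tested in 17 mouse and 16 human genes. In mouse 1 fell, Zc3h12d (−0.59), with a median of 0.07, or −0.76 on the pan-NK scale. In NK92MI cells 5 rose and 4 fell, with a median of 0.04. ZFP36L1, which binds AU-rich elements, rose from 72.7–76.4 to 151–160 CPM (log2 fold change 1.04), and ZFP36L2 (0.48), RC3H1 (0.46) and ZC3H12A (0.41), which also promote decay, rose too. The deadenylase subunits CNOT7 (−0.52) and CNOT1 (−0.44) and the AU-rich element binding proteins HNRNPD (−0.39) and KHSRP (−0.32) fell.

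Release of TNF from the membrane needs ADAM17 and its partners. Of 7 such genes tested in mouse, Rhbdf2 fell (−0.99). Of 5 tested in NK92MI cells 4 rose, namely FURIN (0.33), ADAM17 (0.36), ADAM10 (0.23) and RHBDF2 (0.41), while TNF itself did not pass the test; without one of the DMSO libraries 2 of them passed. TNF receptor signalling was tested in 27 genes of each species. In mouse Traf2 rose (0.35, but −0.46 on the pan-NK scale). In NK92MI cells 14 rose and 5 fell, with a median of 0.19. TNFAIP3 (A20), an inhibitor of NF-kB, rose from 39.8–41.9 to 122–125 CPM (log2 fold change 1.59), and TRAF1 (1.48), BIRC3 (1.39) and NFKBIB (1.05) rose, while TRAF5 (−0.60), RBCK1 (−0.33), IKBKB (−0.29) and IKBKG (−0.34) fell.

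Genes of the IFN-γ response were tested in 31 mouse genes, of which 7 rose and 1 fell, with a median of 0.04, or −0.79 on the pan-NK scale. Socs1, a feedback inhibitor of JAK kinases, rose from 24.2–29.8 CPM in WT to 40.6–57.4 CPM in KO libraries (log2 fold change 0.95, or 0.17 on the pan-NK scale). Gbp6 (0.79) and Gbp4 (0.54), guanylate-binding proteins of host defence, rose, but were at −0.04 and −0.25 on the pan-NK scale, and Ciita, the activator of MHC class II genes, fell (−1.10). In NK92MI cells 12 of 29 rose and 4 fell, where 18.4% of all genes tested passed in each direction, with a median of 0.17. ICAM1 rose from 34.5–41.3 to 132–148 CPM (log2 fold change 1.93), with GBP4 (0.74), B2M (0.73) and TAP1 (0.64), whereas PSMB10 (−0.92), IRF8 (−0.57), NLRC5 (−0.45) and JAK1 (−0.27) fell.

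**Figure D5:**
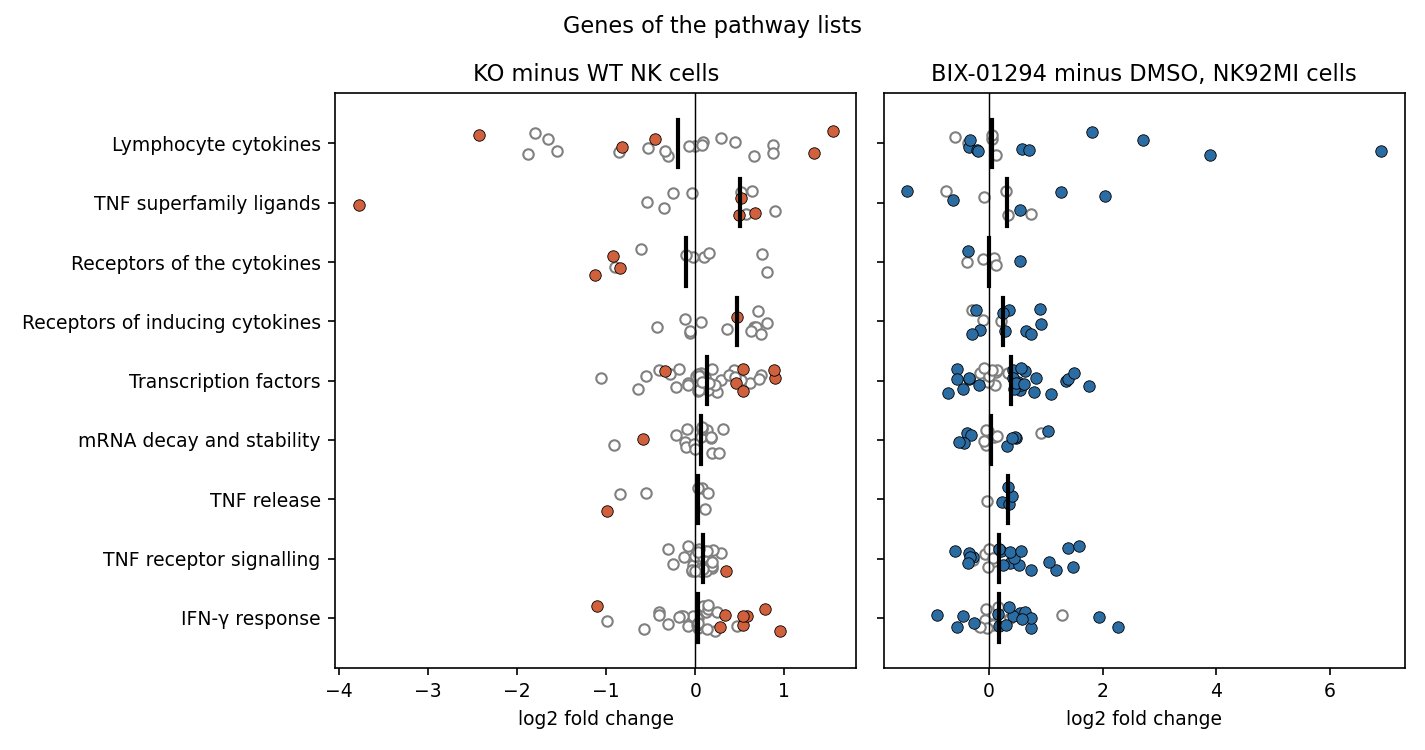
Log2 fold changes of the tested genes of 9 pathway lists in mouse (left, KO minus WT) and NK92MI cells (right, BIX-01294 minus DMSO). Each point is 1 gene, filled where it passed at an adjusted p under 0.05 by edgeR, and the black bar is the median. In the right panel 17 of 34 transcription factors rose and 7 fell, and 14 of 27 genes of TNF receptor signalling rose and 5 fell, where 18.4% of all genes tested passed as higher and 18.4% as lower, and in the left panel most points are open (on the pan-NK scale mouse values shift down, and 16 of 36 transcription factors passed as lower).

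Genes that neighbour the cytokine genes were tested to see whether the differences extended along the chromosome. Of all genes tested, 18.4% passed in each direction in NK92MI cells, and 4.44% passed as higher and 7.43% as lower in mouse. Around IFNG, of 4 neighbours tested, RAP1B (0.28) and DYRK2 (0.23) rose in NK92MI cells, against 2.71 for IFNG, and 1 of these passed without BIX-01294 replicate 1, BIX-01294 replicate 2 or either of 2 DMSO libraries. Around the TNF cluster, LST1 (1.14) and NCR3 (0.48), which encodes the NK receptor NKp30, rose, while PRRC2A (−0.45) and BAG6 (−0.29) fell, of 6 tested. Around CSF2, IRF1 rose in NK92MI cells (0.43), of 2 tested. Around Csf2, Irf1 rose in KO NK cells (0.53, but −0.26 on the pan-NK scale), of 5 tested. Of the 5 tested neighbours of IL23A, 0 passed by edgeR, and their median log2 fold change was 0.02. In mouse, the 4 tested neighbours of Ifng had a median of 0.27 and the 7 of the Tnf cluster a median of −0.01, or −0.54 and −0.84 on the pan-NK scale.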

How the data were processed

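The libraries were those of splenic NK cells (3 WT, 3 KO) and of the NK92MI line (3 with BIX-01294, 3 with DMSO). Per the methods and the submitters' processing notes, the authors trimmed reads with fastp 0.23.4, aligned them with STAR 2.7.11b to the mouse build GRCm38/mm10 or the human build GRCh38/hg38, and took counts with HTSeq 2.0.3. The deposited values are these raw counts, listed by gene symbol and not normalized. The annotation release and strand setting are not given in the sources used here, and positions come from GENCODE annotations of the same builds.

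Each species was fitted separately with edgeR 4.0.16 (R 4.3.3): TMM, filterByExpr, the quasi-likelihood test and Benjamini-Hochberg adjustment over all genes tested, with a threshold of 0.05. Intervals are 95%. The edgeR intervals include the spread between libraries. A count of 3 was the floor, and the floors and the ratio interval of CSF2 cover counting error only. Alternatives were DESeq2 size factors, scaling by library totals, no filter on low counts, a filter at a mean CPM of 1, DESeq2 1.42.0, limma-voom (limma 3.58.1), the thresholds of the study, a replicate block, each library left out, and scaling to 11 pan-NK genes. The procedure was tested on simulated data.

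The cytokine genes, the gene lists, the threshold and the alternatives were chosen with earlier results of these data known. The genes named are the cytokine genes, the targeted gene, the genes of each list that passed (at most the 4 with the smallest p per direction), and the 3 genes closest to Ifng and IFNG by Pearson r of log2 CPM with a prior count of 2. IFNG-AS1 was added because it overlaps IFNG. DMSO columns carry no link to numbered samples and were used as a group. Samples of the same group differed by more than sampling noise. RefSeq promoters were used for human genes only.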

Additional observations from a re-analysis of the deposited data

How the results depend on the processing

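In NK92MI cells 4 genes passed under each alternative normalization, filter and tool and with each library left out, and 3 with DESeq2 at the study's thresholds. The log2 fold change stayed within 2.51 to 2.85 for IFNG, 2.48 to 3.004 for IL23A, 0.46 to 0.63 for LTA and 0.37 to 0.69 for LTB with 1 library left out, and within −0.10 (without BIX-01294 replicate 3) to 0.23 for TNF. Passing genes numbered 4692, and 1485 by edgeR and 1447 by DESeq2 at the study's thresholds.

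In mouse, leaving out 1 library gave 0.95 to 1.33 for Ifng, 1.04 to 1.57 for Csf2, 0.17 to 0.40 for Tnf, −0.49 to −0.13 for Lta and −0.0509 (without KO replicate 1) to 0.16 for Ltb, and the number of the 4 genes that passed was 0 to 1. Scaling to the pan-NK list gave 0.32 for Ifng, 0.56 for Csf2, −0.56 for Tnf, −1.13 for Lta and −0.75 for Ltb, with 2 of the 4 passing, both lower, and 7447 genes passing in all. By edgeR at the study's thresholds 0 of the 4 and 0 genes in all passed (2080 higher and 2639 lower at an unadjusted p under 0.05), while Ifng passed by DESeq2. All genes passing numbered 1565 by edgeR, 3092 by DESeq2, and 0 to 3530 with 1 library left out (0 without KO replicate 2 or KO replicate 3, where 3208 and 3287 had an unadjusted p under 0.05, 99 without WT replicate 1, 14 without WT replicate 3, 3530 without WT replicate 2). The causes were not tested.

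The labels do not say whether the mouse replicate numbers pair the samples. Deviations of same-numbered libraries from their group means correlated at 0.28, 0.35 and −0.19, and not every library correlated best with its own number. With 3 libraries per group, these values cannot decide whether the samples were paired. With the number as a replicate block 3222 genes passed, and Ifng had a log2 fold change of 1.10 (adjusted p = 0.00441 by edgeR). No paired analysis was possible for the human libraries because the DMSO columns carry no numbers. CSF2 and Il23a had too few reads to be tested, and TNF was measured on few reads in NK92MI cells.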
